A study of Mus musculus with 6 samples.

Results

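This account covers 38 genes of the ATF4 pathway and the unfolded protein response in cultured mouse aortic cells without and with Nt5e, out of 25683 genes in the deposited table. They were chosen by name, with no use of their values in the rule. The table's name column holds 37 of them as written, and the gene of CHOP is listed there as Ddit3_1 and was matched by its position, as the entry nearest to the RefSeq gene. All 38 had enough reads to be tested. RNA selected for poly(A) tails was sequenced in 6 libraries, 3 from Nt5e knock-out cells (libraries 1, 2 and 3) and 3 from Nt5e wild-type cells (libraries 4, 5 and 6). The product of Nt5e is CD73, an enzyme on the cell surface that turns AMP into adenosine. The cells of every library are labelled as a primary line of aortic smooth muscle cells of the mouse, grown at 10% serum and then held at 0.5% serum for 48 h to induce differentiation. The labels used here do not say how the deletion was made, the age or number of the mice, or whether libraries are separate cultures, so p-values measure the spread between these libraries, which may be technical.

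The pathway has linked arms. When unfolded proteins build up in the endoplasmic reticulum (ER), the membrane sensors PERK, IRE1 and ATF6 signal to the nucleus. PERK phosphorylates the translation factor eIF2, which lowers translation in general but favours that of ATF4. IRE1 splices Xbp1 RNA, and ATF6 is cut in the Golgi to free a transcription factor. Amino acid shortage and haem shortage also lead to eIF2 phosphorylation through other kinases, so ATF4 targets can move without ER stress. Smooth muscle cells that secrete much matrix depend on ER chaperones to fold collagen and elastin precursors. ATF4 and ATF6 are largely controlled at the level of protein and Xbp1 by splicing, none of which gene-level read counts show.

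Depth ran from 19919095 to 23669252 exon reads per library. The targeted gene, Nt5e, had 22, 1 and 2 exon reads in knock-out libraries 1, 2 and 3, against 615, 688 and 486 in wild-type libraries 4, 5 and 6. Knock-out library 1 stands apart: its biological coefficient of variation was 41.3% and 41.8% against knock-out libraries 2 and 3, and 41% to 45.2% against the wild-type libraries. Libraries 2 and 3 of the knock-out differed by 3.64% on this measure and libraries 4 and 6 of the wild type by 3.47%, so each genotype holds a pair of nearly identical libraries. The last number of the title is 2 for these 4 libraries and 1 for knock-out library 1 and wild-type library 5. With each such pair summed to 1 sample, none of the 38 genes passed (edgeR, lowest adjusted p = 0.126, with 9 at an unadjusted p under 0.05), and 17 of 13041 genes did over the whole table, 0.023% of genes higher and 0.107% lower. Summing instead the libraries whose titles share a stem (knock-out libraries 1 and 2, wild-type libraries 5 and 6) left 5 of the 38 genes higher and 8 lower, where 14.2% and 14.8% of 13074 genes passed, 29.0% in all. Leaving out knock-out library 1 instead gave 17 of the 38 genes higher and 12 lower, where 32.6% and 33.7% of all tested genes passed. Smooth muscle markers were present in part, since Acta2 had 51.9 CPM or more and Tagln 14.9 CPM or more (CPM are read counts scaled to a common library size by TMM), while Des and Myocd had 0 to 4 reads per library and Myh11 1 to 67. The summed level of 8 smooth muscle markers was 177 to 698 CPM in the knock-out and 136 to 206 CPM in the wild-type libraries, with 1 of 5 tested higher and 1 lower. Knock-out library 1 (177 CPM) lay within the wild-type range, and most of the sum in libraries 2 and 3 was Acta2 (546 and 525 CPM). Cnn1 was lower in every knock-out library (0.606, 0.236 and 0.266 CPM, against 1.69, 1.32 and 3.20 CPM in the wild type). Smtn was higher in each (82.2, 108 and 104 CPM, against 63.8, 63.6 and 74.4 CPM in the wild type). That of 8 mesothelial markers was 62.2 to 153 CPM in the knock-out and 2404 to 2533 CPM in the wild-type libraries, with 7 of 7 tested lower in the knock-out. That of 5 fibroblast markers was 4024 to 5896 CPM in the knock-out and 3613 to 3729.8 CPM in the wild-type libraries, with 1 of 5 higher. For Dpt, Lum and Col1a1, knock-out library 1 (9.26, 2.42 and 746.7 CPM) was below every wild-type library, and libraries 2 and 3 were above. For Pdgfra and Dcn, knock-out library 1 was above every wild-type library. Endothelial markers summed to 2.16 to 6.69 CPM in the knock-out and 0.534 to 1.25 CPM in the wild-type libraries, and leukocyte markers to 6.10 to 15.1 CPM in the knock-out and 4.11 to 6.20 CPM in the wild-type libraries, with Cldn5, Ptprc and Adgre1 at 0 reads in every library. Most of the endothelial sum in the knock-out was Kdr (2.03, 6.50 and 5.91 CPM). Of 2 leukocyte markers tested, 1 was higher and 1 lower. Lyz2 had 5.28, 14.6 and 12.2 CPM in the knock-out, against 2.68, 1.19 and 1.53 CPM in the wild type. Cd68 had 0.822, 0.518 and 0.426 CPM in the knock-out, against 3.48, 2.92 and 2.59 CPM in the wild type. The part of these marker differences in the results that follow was not tested, and in such bulk libraries fewer cells of a type and less RNA per cell cannot be told apart.

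Called genes of the pathway went in both directions in the Nt5e knock-out cells. The transcripts of the transcription factor genes Atf5 and Ddit3 and of the eIF2 phosphatase subunit Ppp1r15a were higher, those of the sensors Atf6 and Ern1 and of Xbp1 were lower, and Atf4 itself did not pass. Among the effectors, Hsp90b1 and Herpud1 were higher, and Chac1, Psph and Sdf2l1 were lower. In all, 5 of the 38 genes were higher in the knock-out cells, 6 were lower and 27 did not pass. The test was the quasi-likelihood test of edgeR, with p adjusted over 12660 genes by Benjamini-Hochberg and a threshold of 0.05. Over all tested genes 27.8% passed, 14.1% higher and 13.7% lower, so a share of 28.9% among the 38 is near the background. The same shares are the background for the counts by group below on exon reads. DESeq2 gave 7 higher and 8 lower, where 17.1% and 17% of all genes were called, and a term for the last number of the library titles gave 7 and 10, where 35.6% of all genes passed, 17.6% higher and 18% lower. The 3 knock-out libraries lay all above the 3 wild-type libraries for 10 of the genes and all below for 8, together 18, where 24.3% and 25.5% of all tested genes did so, together 49.7%. The median log2 fold change was 0.05 over the 38 genes and 0.02 over all tested genes. Taken against the wild-type mean, the median log2 ratio over the 38 was -0.06, 0.17 and 0.16 for knock-out libraries 1 to 3, where that over all tested genes was -0.01, -0.01 and -0.01.

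**Figure D1:**
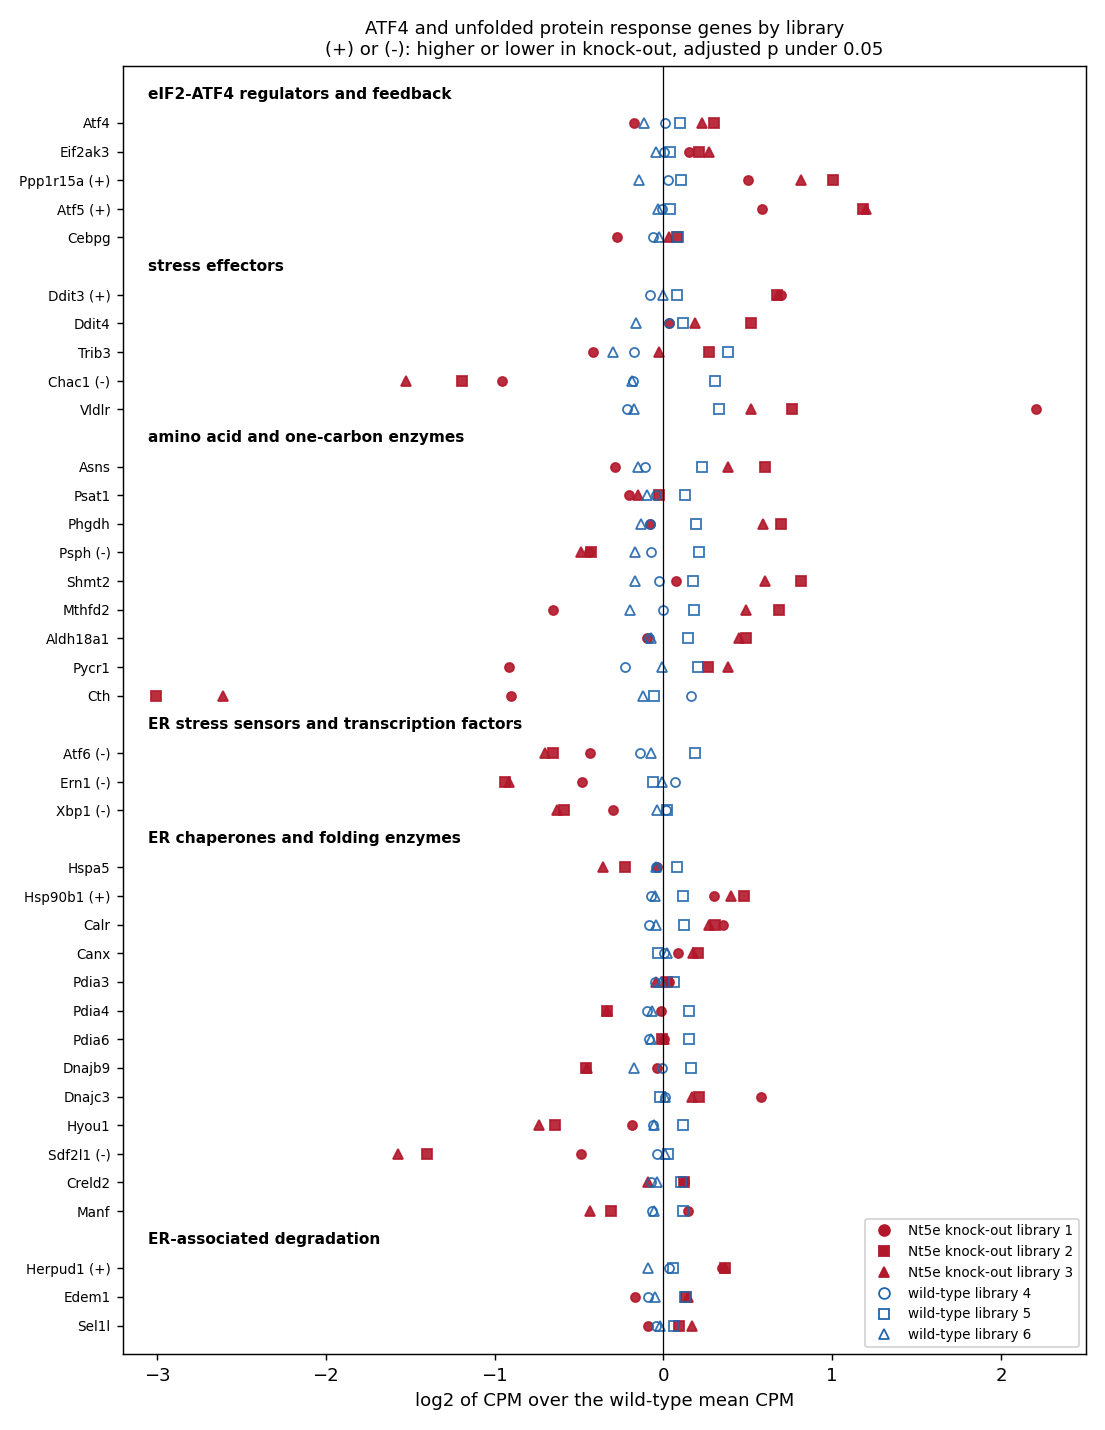
Each row is a gene and each point a library, placed by the log2 of its CPM over the wild-type mean CPM (filled red, knock-out libraries 1 to 3; open blue, wild-type libraries 4 to 6), with rows grouped by role. The 3 knock-out points of Atf6, Ern1 and Xbp1 lie left of all wild-type points, those of Atf5, Ddit3 and Ppp1r15a lie right of them, and for several amino acid enzymes knock-out library 1 lies apart from libraries 2 and 3.

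**Figure D2:**
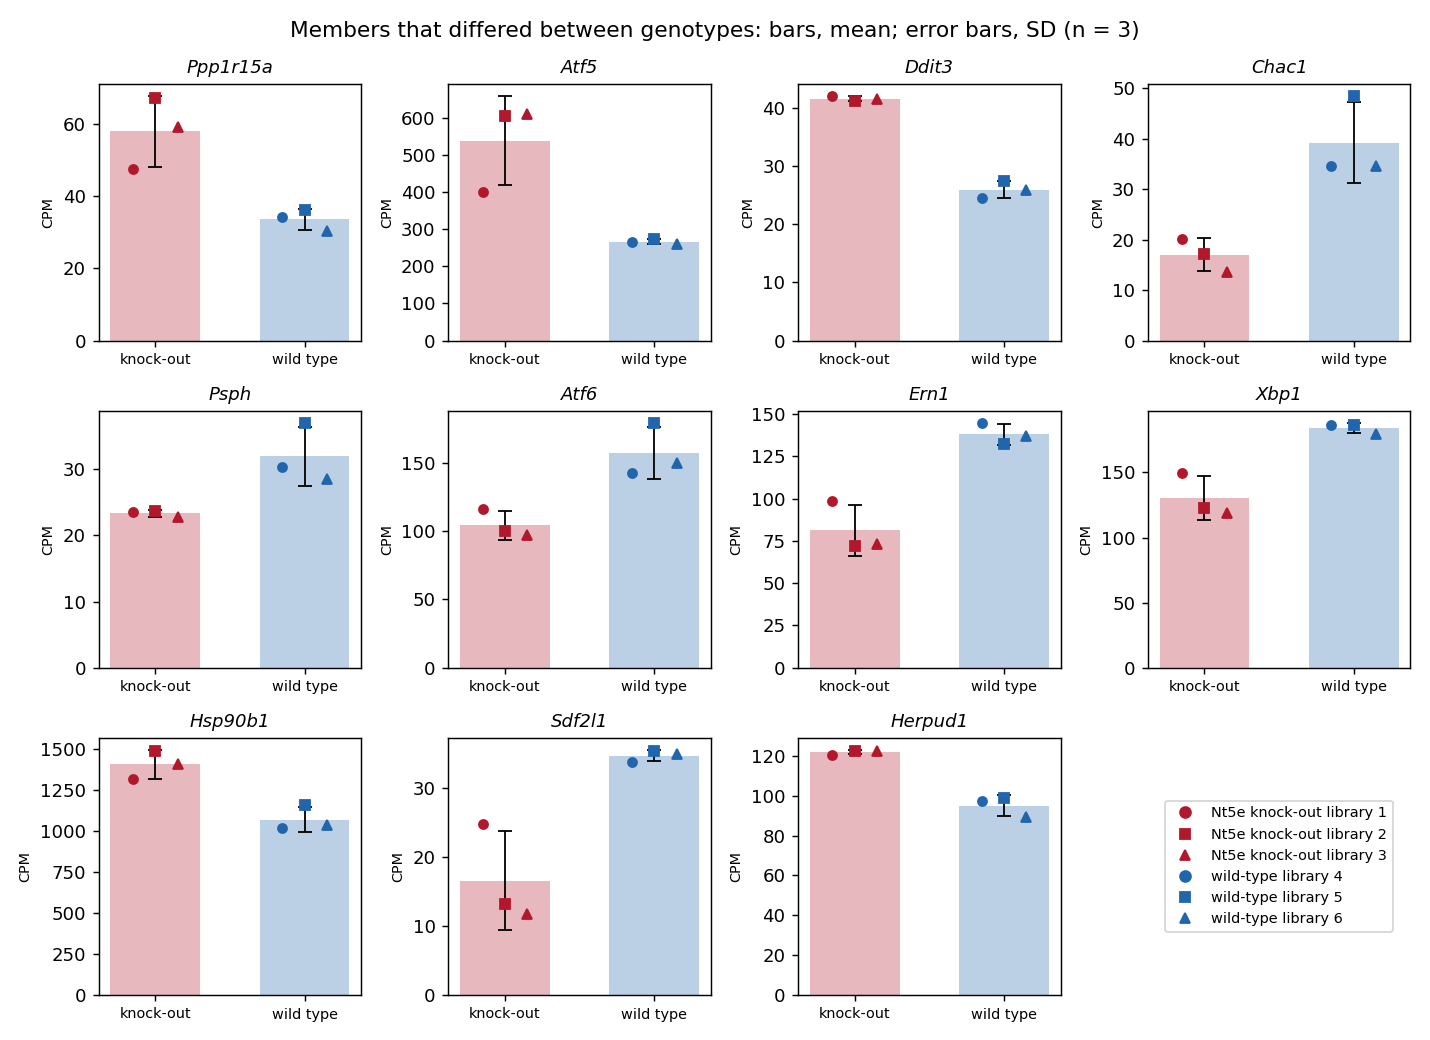
CPM by library for the 11 genes that passed, knock-out left and wild type right; bars are means, error bars SD (n = 3 each) and points libraries, on axes that start at 0. In every panel the 3 knock-out points do not overlap the 3 wild-type points.

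Sequence motifs of the pathway were looked up in the promoters because known targets of ATF4 and of ATF6 are described by different elements. RefSeq promoter windows of GRCm38.p6, 250 bases before to 50 after a gene start, were held for 34 of the 38 genes. The element bound by ATF4 with C/EBP partners (CARE, letters TGATGNAA, either strand) was present in 6 of these 34 genes, 17.6%, and in 4.51% of all 27025 genes with a window. The ER stress response element (ERSE, CCAAT and CCACG with 9 bases between, either strand) was present in 7 of 34, 20.6%, and in 0.137% of all genes. The related ERSE-II (ATTGG and CCACG with 1 base between) was present in 1, Herpud1, and in 0.0444% of all genes, and the core of the UPR element (TGACGTG) in 1, Hspa5, and in 2.22% of all genes. The motifs did not overlap each other in these windows. The ERSE matches follow, written 5′ to 3′ on the strand of the motif, with the fixed bases in capitals (Hsp90b1 holds 2). Positions are those of the match's first base on the gene's strand, counted from the RefSeq start in its window. That start can differ from the gene coordinates given below, as it does for Hsp90b1, Chac1 and Herpud1.

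Calr at -162: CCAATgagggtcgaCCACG

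Canx at -145: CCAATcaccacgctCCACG

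Creld2 at -126: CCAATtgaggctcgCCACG

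Dnajc3 at -105: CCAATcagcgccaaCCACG

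Hsp90b1 at -212: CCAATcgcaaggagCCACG

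Hsp90b1 at -107: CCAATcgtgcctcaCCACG

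Hspa5 at -65: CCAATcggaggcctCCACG

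Pdia6 at -98: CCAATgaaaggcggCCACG

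The ERSE-II match of Herpud1, shown because it is the only one among these windows, is written in the same way.

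Herpud1 at -52: ATTGGgCCACG

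The CARE matches follow, with the free base in lower case. For Vldlr the match lies in the window at chr19:27216770-27217069, plus strand, and is counted from the start in that window. Its other window, chr19:27216234-27216533, which holds the start of the gene as counted (27216484), has no match.

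Asns at -23: TGATGaAA

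Chac1 at -193: TGATGcAA

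Herpud1 at -112: TGATGcAA

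Pycr1 at -103: TGATGcAA

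Trib3 at 15: TGATGtAA

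Vldlr at -200: TGATGcAA

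Of the 6 genes with a CARE match, Herpud1 was higher, Chac1 was lower, and Asns, Pycr1, Trib3 and Vldlr did not pass. Among the 7 with an ERSE match, Hsp90b1 was higher and Calr, Canx, Creld2, Dnajc3, Hspa5 and Pdia6 did not pass. A match is a description of these letters, not a site shown to be in use. These genes were chosen as genes of the pathway whose known targets the elements describe, so no conclusion is drawn from the shares above.

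Whole windows are given for 3 called genes with different layouts. They are Chac1, which was lower, with a CARE match; Herpud1, which was higher, with a CARE and an ERSE-II match; and Hsp90b1, which was higher, with an ERSE match on each strand. Matches are in capitals, and the sequence runs 5′ to 3′ on the gene's strand at chr2:119350992-119351291, plus strand, chr8:94386179-94386478, plus strand and chr10:86705395-86705694, minus strand (GRCm38.p6).

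Chac1: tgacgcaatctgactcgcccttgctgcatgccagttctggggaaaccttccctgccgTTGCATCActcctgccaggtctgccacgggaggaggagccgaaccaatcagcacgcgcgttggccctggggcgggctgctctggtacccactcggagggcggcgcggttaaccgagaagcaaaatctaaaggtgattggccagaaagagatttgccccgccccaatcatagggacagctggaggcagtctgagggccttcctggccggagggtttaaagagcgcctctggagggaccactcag

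Herpud1: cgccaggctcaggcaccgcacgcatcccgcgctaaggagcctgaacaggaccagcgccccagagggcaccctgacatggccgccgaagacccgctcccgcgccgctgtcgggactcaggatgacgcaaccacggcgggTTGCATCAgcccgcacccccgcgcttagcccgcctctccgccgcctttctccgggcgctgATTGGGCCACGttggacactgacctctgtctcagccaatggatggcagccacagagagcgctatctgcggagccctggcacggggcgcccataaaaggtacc

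Hsp90b1: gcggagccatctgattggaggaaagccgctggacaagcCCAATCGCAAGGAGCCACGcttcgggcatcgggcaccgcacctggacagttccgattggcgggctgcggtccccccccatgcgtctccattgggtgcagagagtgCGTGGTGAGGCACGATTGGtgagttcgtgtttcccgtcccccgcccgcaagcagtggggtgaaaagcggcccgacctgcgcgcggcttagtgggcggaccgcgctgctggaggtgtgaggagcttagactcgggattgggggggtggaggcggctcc

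Among the regulators of the eIF2 and ATF4 arm, 2 of 5 passed, Atf5 and Ppp1r15a, both higher in the knock-out, and Atf4 did not. Across all tested genes 14.1% were higher. Atf4 (ENSMUSG00000042406, chromosome 15, 80255184 to 80257541, plus strand, GRCm38, as for all coordinates here) had 270.4, 376 and 357 CPM in the knock-out (libraries 1 to 3), against 306, 327 and 282 CPM in the wild type (libraries 4 to 6). Knock-out library 1 was below every wild-type library and libraries 2 and 3 were above, and the gene did not pass (log2 fold change 0.13 ± 0.14, adjusted p = 0.512). Here and below ± after a fold change is the SE, and p is edgeR's with n = 3 each. Without knock-out library 1 its log2 fold change was 0.26 (edgeR adjusted p = 0.018), a setting in which 66.2% of all genes passed. Atf5 (ENSMUSG00000038539, chromosome 7, 44812256 to 44816658, minus strand), a related factor whose translation also rises when eIF2 is phosphorylated, had 399, 605 and 610.4 CPM in the knock-out (libraries 1 to 3), against 265, 273 and 261 CPM in the wild type (libraries 4 to 6). Its level was thus higher in each knock-out library than in each wild-type library, most of all in libraries 2 and 3 (538 ± 120.5 CPM in knock-out and 266 ± 6.25 CPM in wild-type cells; log2 fold change 1.02 ± 0.18, adjusted p = 0.0115). It lies opposite to Nup62, whose own log2 fold change was 0.08 ± 0.07 (edgeR adjusted p = 0.423).

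Ppp1r15a (ENSMUSG00000040435, chromosome 7, 45522916 to 45526268, minus strand) encodes GADD34, the stress-induced subunit that directs a phosphatase to eIF2 and so ends the response. It had 47.4, 67.0 and 58.9 CPM in the knock-out (libraries 1 to 3), against 34.1, 36.0 and 30.3 CPM in the wild type (libraries 4 to 6), with no overlap between genotypes (log2 fold change 0.79 ± 0.14, adjusted p = 0.0136). Eif2ak3, the gene of the sensor kinase PERK, had 50.9, 53.2 and 55.2 CPM in the knock-out, against 46.0, 47.1 and 44.6 CPM in the wild type. These groups did not overlap either, but the difference was small and did not pass (log2 fold change 0.21 ± 0.07, adjusted p = 0.0598). Cebpg, a C/EBP partner of ATF4, overlapped between genotypes at 51.1 ± 6.60 CPM in knock-out and 52.7 ± 2.80 CPM in wild-type cells and did not pass (-0.05 ± 0.11, 0.778). Such pairs in parentheses are the fold change on the log2 scale with its SE, then edgeR's adjusted p. The call of Ppp1r15a was lost on leaving out library 3 of the knock-out or library 4 or 6 of the wild type (adjusted p in edgeR up to 0.0651), and that of Atf5 without wild-type library 4 or 6 (up to 0.0617).

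Of the 5 stress effectors, Ddit3 rose, Chac1 fell and 3 did not pass. Ddit3 (ENSMUSG00000025408, chromosome 10, 127290774 to 127296288, plus strand), the gene of CHOP, a factor that promotes death of stressed cells, had 42.1, 41.3 and 41.6 CPM in the knock-out (libraries 1 to 3), against 24.6, 27.4 and 25.8 CPM in the wild type (libraries 4 to 6). Its spread within the knock-out was narrow, at 41.7 ± 0.423 CPM in knock-out and 25.9 ± 1.43 CPM in wild-type cells, and it rose (0.68 ± 0.07, 0.00316). Knock-out library 1, which departed from the others for many genes, did not do so here, with a log2 ratio to the wild-type mean of 0.70 beside 0.67 and 0.68 in libraries 2 and 3. Chac1 (ENSMUSG00000027313, chromosome 2, 119351229 to 119354381, plus strand), an enzyme that breaks down glutathione and a target of ATF4, went the other way, at 20.2, 17.2 and 13.6 CPM in the knock-out (libraries 1 to 3), against 34.6, 48.5 and 34.5 CPM in the wild type (libraries 4 to 6). Every knock-out library was below every wild-type library, and the gene fell (-1.21 ± 0.20, 0.0107). Ddit3 and Chac1 were the members whose calls held without each library in turn (adjusted p in edgeR up to 0.0273 and 0.0456). With the nearly identical pairs summed they had log2 fold changes of 0.67, adjusted p = 0.126 and -1.22, adjusted p = 0.138 in edgeR. Mars1, which lies opposite to Ddit3, had a value of -0.01 ± 0.10 (edgeR adjusted p = 0.935). How the authors' counting treated strand is not given in the sources used here.

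Vldlr, a lipoprotein receptor gene induced through PERK and ATF4, had 161, 59.0 and 49.9 CPM in the knock-out (libraries 1 to 3), against 29.9, 43.6 and 30.8 CPM in the wild type (libraries 4 to 6). Library 1 was by far the highest, and although the groups did not overlap the difference did not pass (1.37 ± 0.48, 0.0837). Without library 1 the log2 fold change was 0.64 (edgeR adjusted p = 0.0166). Trib3, a pseudokinase that restrains ATF4, overlapped at 12.6 ± 2.93 CPM in knock-out and 12.9 ± 3.40 CPM in wild-type cells (-0.03 ± 0.26, 0.934), as did Ddit4, an inhibitor of mTORC1, at 38.1 ± 6.79 CPM in knock-out and 31.8 ± 3.06 CPM in wild-type cells (0.26 ± 0.15, 0.237).

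Enzymes of amino acid and one-carbon metabolism are classical ATF4 targets. Of these 9 genes 1 passed, Psph, which was lower, and for several of the others knock-out library 1 lay apart from libraries 2 and 3. Their median log2 ratio to the wild-type mean was -0.29, 0.49 and 0.39 in libraries 1 to 3 of the knock-out. Asns, which makes asparagine, had 58.9, 109 and 93.8 CPM in the knock-out, against 66.7, 84.1 and 64.7 CPM in the wild type (0.28 ± 0.24, 0.417). Library 1 was the lowest of the 6 and libraries 2 and 3 the highest. The same order held for Mthfd2, a mitochondrial folate enzyme, with 28.6, 72.3 and 63.0 CPM in the knock-out, against 44.9, 51.0 and 39.1 CPM in the wild type (0.28 ± 0.34, 0.567). Phgdh, the first enzyme of serine synthesis, had 103, 176 and 163 CPM in the knock-out, against 103, 124 and 98.8 CPM in the wild type (0.44 ± 0.22, 0.182). Here library 1 lay within the wild-type range and libraries 2 and 3 above it. Shmt2, which passes carbon from serine to folate in mitochondria, had 76.3, 127 and 109.7 CPM in the knock-out, against 71.1, 81.6 and 64.3 CPM in the wild type (0.53 ± 0.20, 0.104). Aldh18a1, the entry enzyme of proline synthesis, had 130.3, 196 and 191 CPM in the knock-out, against 132, 154 and 133 CPM in the wild type (0.30 ± 0.17, 0.235). In these too, libraries 2 and 3 exceeded every wild-type library and library 1 did not.

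Psph, the last enzyme of serine synthesis, had 23.5, 23.7 and 22.8 CPM in the knock-out (libraries 1 to 3), against 30.4, 37.0 and 28.5 CPM in the wild type (libraries 4 to 6), all knock-out libraries below all wild-type libraries (-0.45 ± 0.12, 0.0361). Its call was lost on leaving out library 2 or 3 of the knock-out or any of the wild type (adjusted p in edgeR up to 0.113), and with the number after p in the library titles as a term (0.066). It lies opposite to Cct6a, whose value was 0.02 ± 0.14 (edgeR adjusted p = 0.917). Psat1, the middle enzyme, was at 202 ± 12.8 CPM in knock-out and 220.2 ± 18.3 CPM in wild-type cells and did not pass (-0.12 ± 0.09, 0.351). Pycr1, a proline synthesis enzyme, overlapped at 10.9 ± 4.52 CPM in knock-out and 10.8 ± 1.62 CPM in wild-type cells (0.01 ± 0.35, 0.978). Cth, which makes cysteine by transsulfuration, was scarce: it had 28, 6 and 7 reads in the knock-out libraries, against 57, 53 and 45 in the wild-type libraries. The groups did not overlap, but the gene did not pass (-1.84 ± 0.58, 0.0622). Without knock-out library 1 its log2 fold change was -2.79 (edgeR adjusted p = 0.000406). In that setting 66.2% of all genes passed, and the knock-out rests on the nearly identical libraries 2 and 3.

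In the knock-out, the sensors and the transcription factors of the ATF6 and IRE1 arms were lower in transcript, with 3 of 3 called. Across all tested genes 13.7% were lower. Ern1 (ENSMUSG00000020715, chromosome 11, 106394650 to 106487852, minus strand), the gene of the sensor IRE1, had 98.7, 72.1 and 73.2 CPM in the knock-out (libraries 1 to 3), against 145, 132 and 137 CPM in the wild type (libraries 4 to 6), with every knock-out value below every wild-type value. It fell (-0.76 ± 0.14, 0.0136). Atf6 (ENSMUSG00000026663, chromosome 1, 170704674 to 170867771, minus strand) had 116, 99.8 and 96.8 CPM in the knock-out (libraries 1 to 3), against 143, 179 and 149 CPM in the wild type (libraries 4 to 6). It fell (-0.59 ± 0.12, 0.0191). Xbp1 (ENSMUSG00000020484, chromosome 11, 5520659 to 5525893, plus strand), the factor made active by IRE1, had 149.7, 122 and 119 CPM in the knock-out (libraries 1 to 3), against 186, 186 and 179.6 CPM in the wild type (libraries 4 to 6). It fell (-0.50 ± 0.11, 0.0206). For all 3 the decrease was smaller in knock-out library 1 than in libraries 2 and 3. The call of Ern1 was lost on leaving out library 2 or 3 of the knock-out or library 4 or 6 of the wild type, and those of Atf6 and Xbp1 were lost when any single library but knock-out library 1 was left out (adjusted p in edgeR up to 0.0656, 0.0752 and 0.0859).

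The fall of these genes can be set beside other factors held in the ER membrane. Of 8 tested genes for such factors and for the proteases that cut them, 4 fell and 1 rose, where 27.8% of all tested genes passed. Creb3l2, a relative of ATF6, had 251, 219 and 220.2 CPM in the knock-out, against 379, 359 and 397 CPM in the wild type (-0.72 ± 0.09, 0.00471). Nfe2l1, a factor that raises proteasome genes, had 569, 479 and 476 CPM in the knock-out, against 723, 743 and 700.3 CPM in the wild type (-0.51 ± 0.10, 0.0164). The 2 Golgi proteases that cut ATF6 in turn moved apart. Mbtps1, site-1 protease, had 246, 271 and 283 CPM in the knock-out, against 169.5, 176 and 175 CPM in the wild type. It rose (0.62 ± 0.08, 0.00494). Mbtps2, site-2 protease, had 41.6, 42.9 and 44.5 CPM in the knock-out, against 59.4, 58.7 and 59.3 CPM in the wild type. It fell (-0.46 ± 0.06, 0.00552). Atf6b, the paralogue of Atf6, fell (-0.36 ± 0.07, 0.0175). Mbtps2 and Atf6b were named after their values were seen. Creb3, Creb3l1 and Creb3l4 did not pass, and Creb3l1 had 50.2, 111 and 112 CPM in the knock-out, against 47.8, 48.6 and 56.4 CPM in the wild type (0.84 ± 0.31, 0.0962), with library 1 within the wild-type range. The calls of Creb3l2, Mbtps1 and Mbtps2 held without each library in turn, while those of Nfe2l1 and Atf6b were lost without any library but knock-out library 1.

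**Figure D3:**
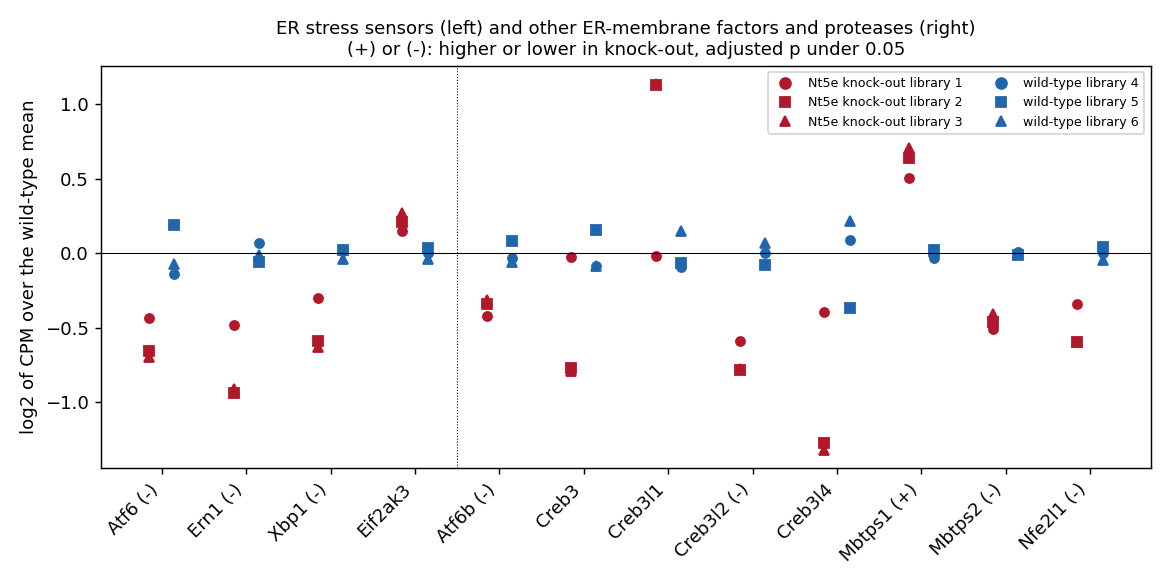
Columns are genes, with the ER stress sensors and Xbp1 left of the dotted line and other ER-membrane factors and proteases right of it; points are libraries, placed by the log2 of CPM over the wild-type mean (red, knock-out libraries; blue, wild-type libraries). Knock-out points of Atf6, Ern1, Xbp1, Atf6b, Creb3, Creb3l2, Creb3l4, Mbtps2 and Nfe2l1 lie below 0, and those of Eif2ak3 and Mbtps1 above it.

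Chaperones and folding enzymes of the ER were among the most abundant of the 38 genes and mostly did not pass: 1 of 13 rose, 1 fell and 11 did not pass. Hspa5, the gene of BiP and the usual marker of ER stress, had 984, 864 and 788 CPM in the knock-out (libraries 1 to 3), against 982, 1071 and 980.4 CPM in the wild type (libraries 4 to 6). Knock-out library 1 fell within the wild-type range and libraries 2 and 3 below it (-0.20 ± 0.11, 0.214). Hsp90b1 (ENSMUSG00000020048, chromosome 10, 86690209 to 86705509, minus strand), the gene of the ER chaperone GRP94, had 1318, 1492 and 1412 CPM in the knock-out (libraries 1 to 3), against 1017, 1159.7 and 1035 CPM in the wild type (libraries 4 to 6). It rose (0.39 ± 0.10, 0.0328). In contrast Sdf2l1 (ENSMUSG00000022769, chromosome 16, 17130138 to 17132383, minus strand), a cofactor of BiP and its J-domain partners, had 24.8, 13.2 and 11.7 CPM in the knock-out (libraries 1 to 3), against 33.8, 35.4 and 34.8 CPM in the wild type (libraries 4 to 6). It fell (-1.07 ± 0.29, 0.0431). Library 1 was nearer to the wild type than libraries 2 and 3. The calls of Hsp90b1 and Sdf2l1 were lost when any single library but knock-out library 1 was left out (adjusted p in edgeR up to 0.148 and 0.129). That of Hsp90b1 was lost as well with libraries of 1 title stem summed (0.0514) and with the number after p in the titles as a term (0.0608). Without library 1 the log2 fold change of Sdf2l1 was -1.49 (edgeR adjusted p = 1.72e-05). In that setting 66.2% of all genes passed, and the knock-out rests on the nearly identical libraries 2 and 3.

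The lectin chaperones calreticulin and calnexin, which hold glycoproteins while they fold, had knock-out values all above wild-type values without passing. Calr had 1007, 974 and 951 CPM in the knock-out, against 744, 858 and 765 CPM in the wild type (0.31 ± 0.09, 0.0508). Canx had 669.8, 728 and 713 CPM in the knock-out, against 633, 617 and 640.4 CPM in the wild type (0.16 ± 0.08, 0.168). Hyou1, an exchange factor for BiP, lay wholly below the wild type with 232, 169 and 158 CPM in the knock-out, against 253, 286 and 254 CPM in the wild type (-0.50 ± 0.16, 0.0665). Dnajc3, a co-chaperone of BiP that also inhibits PERK, lay wholly above with 437, 339 and 330.1 CPM in the knock-out, against 295, 289 and 295 CPM in the wild type (0.33 ± 0.13, 0.1). Here library 1 was the highest of the 6. The disulfide isomerases Pdia3, Pdia4 and Pdia6 overlapped between genotypes at 843 ± 23.9 CPM in knock-out and 841 ± 34.6 CPM in wild-type cells (0.00 ± 0.08, 0.976), 243 ± 32.2 CPM in knock-out and 284 ± 27.3 CPM in wild-type cells (-0.22 ± 0.13, 0.231), and 309 ± 1.78 CPM in knock-out and 309 ± 29.5 CPM in wild-type cells (-0.00 ± 0.09, 0.999). Dnajb9, a J-domain partner of BiP, Creld2, a secreted stress protein, and Manf, a secreted ER protein, did not pass either, with log2 fold changes of -0.30 ± 0.15, 0.05 ± 0.09 and -0.18 ± 0.16. Manf shares its span with Rbm15b and Dcaf1, which makes its count uncertain.

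Of the 3 genes of ER-associated degradation, which returns misfolded proteins to the cytosol, Herpud1 rose and Edem1 and Sel1l did not pass. Herpud1 (ENSMUSG00000031770, chromosome 8, 94386438 to 94395377, plus strand), a membrane organiser of the degradation complex, had 121, 123 and 122 CPM in the knock-out (libraries 1 to 3), against 97.4, 98.7 and 89.1 CPM in the wild type (libraries 4 to 6). It rose (0.36 ± 0.07, 0.0159). The 3 knock-out values lay within 2 CPM of each other and above all wild-type values. Its call was lost on leaving out library 2 or 3 of the knock-out or library 4 or 6 of the wild type (adjusted p in edgeR up to 0.0733). Edem1, a lectin that marks substrates, and Sel1l, the adaptor of the ligase complex, overlapped at 96.8 ± 11.6 CPM in knock-out and 93.9 ± 7.55 CPM in wild-type cells (0.04 ± 0.12, 0.802) and 230.4 ± 20.7 CPM in knock-out and 221 ± 8.66 CPM in wild-type cells (0.06 ± 0.09, 0.645).

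Levels between genes were compared on the authors' RPKM, which divides reads by exon length and depth. Hsp90b1 was the most abundant of the 38 per length, at 449 ± 12.9 RPKM in knock-out and 361 ± 23.8 RPKM in wild-type cells, followed by Calr at 404 ± 30.3 RPKM in knock-out and 345 ± 24.2 RPKM in wild-type cells, and Cth was the least abundant at 0.318 ± 0.276 RPKM in knock-out and 1.19 ± 0.129 RPKM in wild-type cells. Atf4 stood at 174 ± 22.1 RPKM in knock-out and 169 ± 11.4 RPKM in wild-type cells and Atf5 at 242 ± 44.5 RPKM in knock-out and 127 ± 2.14 RPKM in wild-type cells, so that Atf5 averaged above Atf4 in the knock-out and below it in the wild type. Atf6, Ern1 and Eif2ak3, the sensor genes, were at 13.04 ± 1.96 RPKM in knock-out and 20.7 ± 2.40 RPKM in wild-type cells, 9.05 ± 2.14 RPKM in knock-out and 16.1 ± 0.82 RPKM in wild-type cells, and 9.89 ± 0.218 RPKM in knock-out and 9.04 ± 0.196 RPKM in wild-type cells. Their order was Atf6, Ern1 and Eif2ak3 in the wild type, while in the knock-out the ranges of Ern1 and Eif2ak3 overlapped. No test was made of this order.

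**Figure D4:**
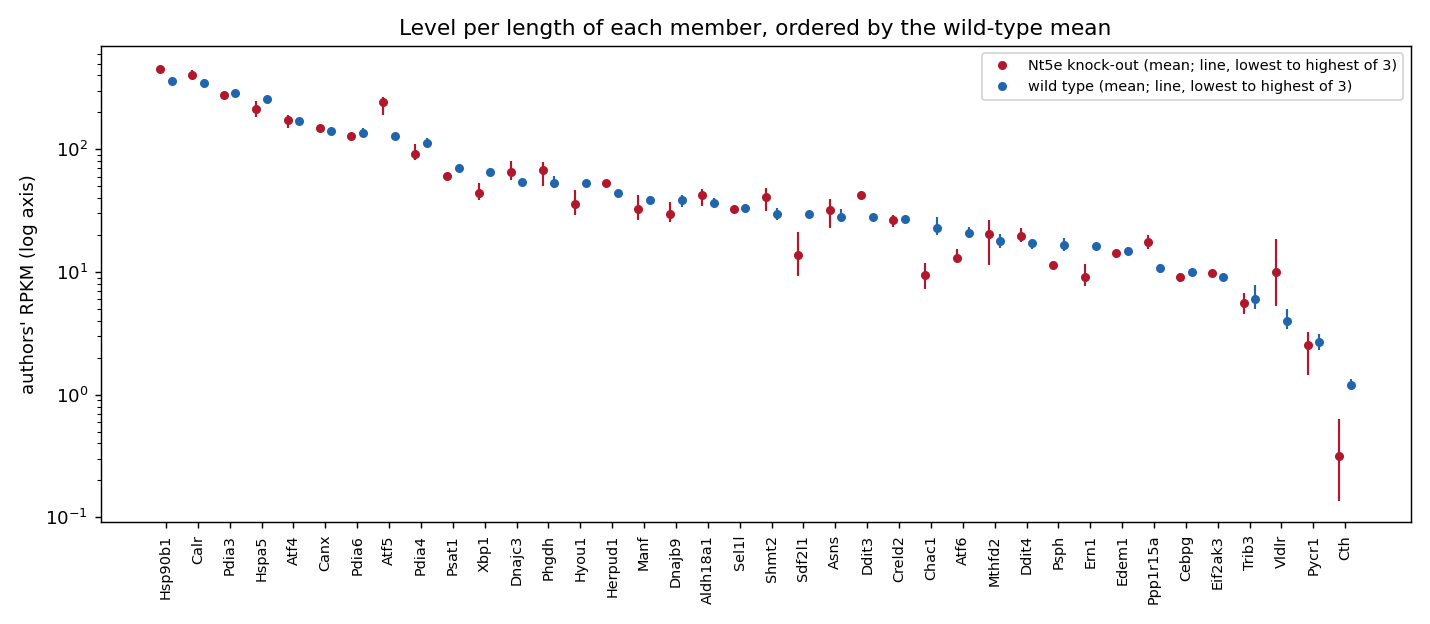
Genes are ordered from left to right by their wild-type mean of the authors' RPKM, shown on a log axis, with the knock-out (red) left of the wild type (blue) at each gene; points are means and lines run from the lowest to the highest of 3 libraries. Hsp90b1 and Calr stand at the left end and Cth at the right end, and Atf5 lies above its neighbours in the knock-out.

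Reads in introns, which come largely from RNA not yet spliced, gave a second readout of the same libraries for 34 of the 38 genes. Of these, 2 were higher and 1 was lower in knock-out cells by the same edgeR test, adjusted over 10653 genes. Over all genes 12% passed, 4.98% higher and 7.03% lower. Atf5 had 65, 161 and 148 intron reads in the knock-out, against 58, 70 and 52 in the wild type (log2 fold change 1.03 ± 0.28, adjusted p = 0.0461 in edgeR), a size close to that of its exon reads. Knock-out library 1 lay within the wild-type range here, unlike on exon reads. Nup62 overlaps Atf5 on the other strand, and how counting treated strand is not given. Ern1 had 60, 50 and 52 intron reads in the knock-out, against 95, 110 and 95 in the wild type (log2 fold change -0.88 ± 0.18, adjusted p = 0.0166), also near its exon value. Phgdh, whose exon reads did not pass, had 62, 131 and 104 intron reads in the knock-out, against 51, 43 and 49 in the wild type (log2 fold change 1.03 ± 0.23, adjusted p = 0.0232). Xbp1, which fell in exon reads, had 91, 109 and 74 intron reads in the knock-out, against 82, 96 and 90 in the wild type. It did not pass on them (log2 fold change 0.03 ± 0.17, adjusted p = 0.929). The difference between the 2 readouts was not tested. Chac1 had few, with 6, 7 and 6 intron reads in the knock-out, against 15, 12 and 14 in the wild type (log2 fold change -1.10 ± 0.36, adjusted p = 0.0854), and for Ddit3, where a gene on the other strand overlaps, the values were 205, 358 and 285 intron reads in the knock-out, against 206, 236 and 194 in the wild type (log2 fold change 0.40 ± 0.17, adjusted p = 0.166). All 3 calls on intron reads ended when any library but knock-out library 1 was left out: 0 genes of the list then passed in edgeR, with 6 to 8 at an unadjusted p under 0.05, and 11 passed without that library. The share of all genes that passed on intron reads in these settings is not given here. These counts are therefore not read as a result about the list.

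**Figure D5:**
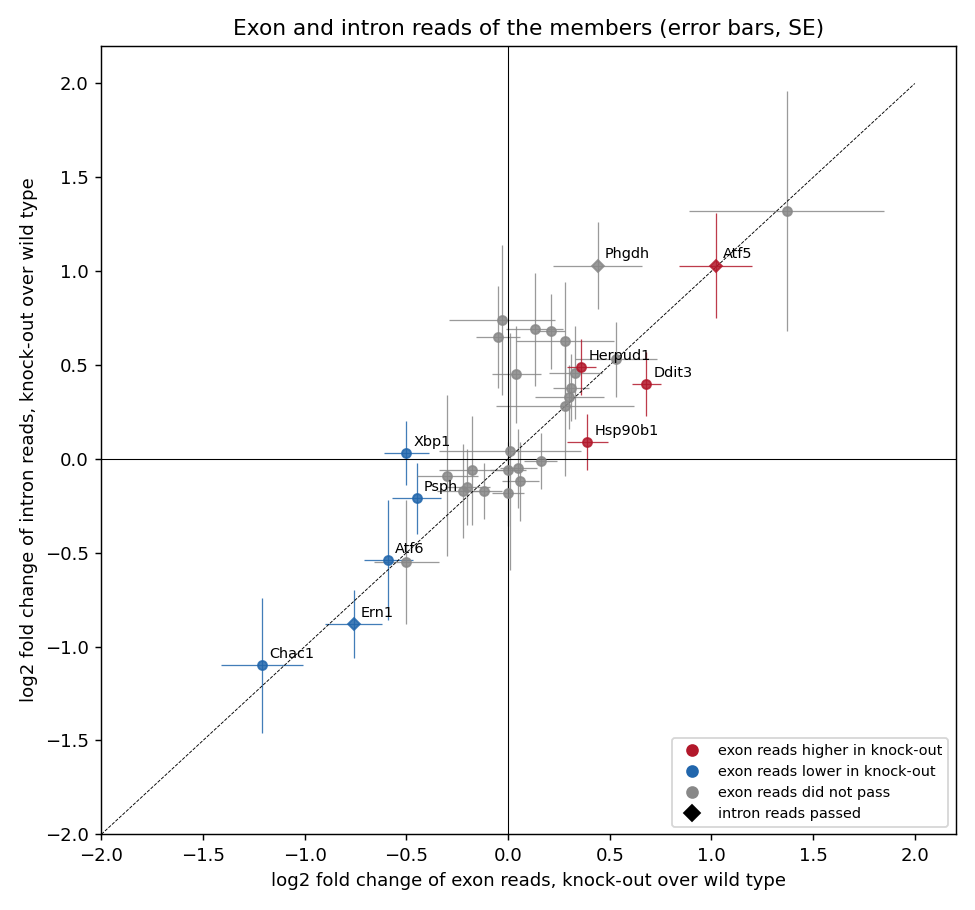
Each point is 1 of the 34 genes tested on both readouts, with the log2 fold change (knock-out over wild type) of exon reads on the horizontal and of intron reads on the vertical axis, SE as error bars, and the dashed line marking equal values. Atf5 and Ern1 lie near that line, Xbp1 and Hsp90b1 lie closer to 0 in intron reads, and Phgdh lies above the line.

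Other genes of the pathway, 162 in 10 lists, were called in both directions in the knock-out. Of 159 tested, 15 rose and 17 fell, 20.1% against the 27.8% of all tested genes. The median log2 fold change was 0.02. Among other targets of ATF4, 1 of 14 rose and 4 fell. Atf3, a stress factor of the same family, rose with 15.8, 29.0 and 12.5 CPM in the knock-out, against 7.04, 7.69 and 6.95 CPM in the wild type (1.40 ± 0.33, 0.0267). Got1, an aspartate aminotransferase, had 28.7, 35.7 and 31.1 CPM in the knock-out, against 82.3, 96.1 and 78.3 CPM in the wild type and fell (-1.43 ± 0.12, 0.00155). Ndrg1, a stress-responsive gene, had 277, 226 and 202 CPM in the knock-out, against 489, 395 and 501 CPM in the wild type (-0.97 ± 0.16, 0.00915). Atf3 lost its call when wild-type library 4, 5 or 6 was left out, Ndrg1 when library 4 was, and Got1 in no case. Of 11 amino acid transporters 1 rose and 1 fell: Slc7a11, the cystine carrier, had 5.84, 23.8 and 14.5 CPM in the knock-out, against 2.63, 2.22 and 1.90 CPM in the wild type (2.71 ± 0.53, 0.0159). Slc38a1, a glutamine carrier, had 88.4, 67.9 and 58.8 CPM in the knock-out, against 123, 134 and 123 CPM in the wild type (-0.82 ± 0.16, 0.0155). Each of these calls ended without wild-type library 4, 5 or 6 and without 1 knock-out library (library 3 for Slc7a11, library 2 for Slc38a1).

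Of 20 cytosolic aminoacyl-tRNA synthetases, another group of ATF4 targets, 2 passed, both higher, where 14.1% of all tested genes were higher. Aars and Rars, which charge alanine and arginine tRNAs, rose (0.42 ± 0.12, 0.0453) and (0.36 ± 0.08, 0.0242). Among 12 kinases and components of the eIF2 machinery, 2 passed, both lower. They were Eif2b2 (-0.42 ± 0.09, 0.0202) and Eif2b1 (-0.35 ± 0.09, 0.0386), subunits of the exchange factor that phosphorylated eIF2 inhibits. In a list of 15 genes for folate, serine, proline and transsulfuration, Shmt1, the cytosolic counterpart of Shmt2, had 7.14, 15.9 and 14.7 CPM in the knock-out, against 4.15, 4.81 and 4.45 CPM in the wild type. It rose (1.49 ± 0.32, 0.0214). These 5 calls were lost without wild-type library 4, 5 or 6, and also without knock-out library 3 (Eif2b2), 2 (Rars), or either (the others).

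On the ER side, 2 of 21 genes of ER-associated degradation passed, both lower, and 3 of 29 folding enzymes passed, all higher. Of 21 genes of translocation and secretion 3 rose and 3 fell. Nploc4 and Derl2, which help draw proteins out of the ER, fell (-0.47 ± 0.09, 0.0135) and (-0.37 ± 0.07, 0.0166). Ero1l, the oxidase that drives disulfide formation, had 111, 325 and 218 CPM in the knock-out, against 71.2, 73.3 and 69.3 CPM in the wild type. It rose (1.61 ± 0.37, 0.0263), with library 1 the nearest to the wild type. Fkbp9, a prolyl isomerase, rose (0.71 ± 0.15, 0.022). Sec62 and Ssr3, parts of the translocation channel's surroundings, rose (0.44 ± 0.07, 0.00848) and (0.37 ± 0.08, 0.0256), and Ssr4 and Sec61g, of the same machinery, fell (-0.62 ± 0.15, 0.0277) and (-0.53 ± 0.08, 0.00872). Of 8 regulators of cell death 3 passed, all higher, where 14.1% of all tested genes were higher. Among them were Tnfrsf10b, a death receptor gene, and Bax (0.64 ± 0.14, 0.0224). Tnfrsf10b had 38.004, 45.3 and 44.1 CPM in the knock-out, against 21.8, 23.0 and 26.5 CPM in the wild type (0.84 ± 0.11, 0.00594). The call of Tnfrsf10b held without each library in turn, those of Sec62 and Sec61g ended only without wild-type library 4, and the others named here were lost without any library but knock-out library 1, except that Nploc4 also kept its call without wild-type library 5.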

How the data were processed

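Per the file headers, the authors deposited whole-number read counts for 25683 genes in each library (exon, unique exon, exon junction and intron reads) and an RPKM, a rate per exon length and depth; the RPKM was used only to compare levels between genes. The submitters' processing notes name GRCm38 (mm10) as build. Aligner, counter and strand handling: not given in the sources used here. Per the labels' protocols, libraries came from a stranded kit for polyadenylated RNA.

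The test on total exon reads of all genes was run in edgeR 4.0.16 under R 4.3.3 (filterByExpr with a minimum count of 10, TMM, quasi-likelihood F test, genotype as the only term, Benjamini-Hochberg adjustment over 12660 genes, threshold 0.05). An SE is the fold change (log2) over the root of F. CPM use library sizes adjusted by TMM. Intron reads were tested likewise over 10653 genes. The coefficient of variation between libraries is the square root of edgeR's common dispersion over genes with at least 100 reads in a pair. Reads of the members were at least 99.98% unique. Ddit3_1 was taken as Ddit3 as the entry nearest to the RefSeq gene span; a second entry, Ddit3_2, held 0 reads. Promoters are RefSeq windows.

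The 38 members and the lists were chosen with earlier results of these data known. Text names all members, Nt5e, markers, and from each list up to 2 rises and 2 falls of largest size among called genes; 1 such gene is not reported here. Alternatives were other scalings, filters, DESeq2 1.42.0, unique reads, summed libraries, title numbers as terms and leaving out each library. The scripts were tested on simulated data. In data simulated with dispersions taken from these libraries, the main test found 31.7% of 2-fold and 74% of 4-fold changes. Of its calls there, 7.04% were false. The simulated libraries were independent draws, without the nearly identical pairs of these data, and few genes were changed. These rates therefore need not hold for the libraries here. A gene that did not pass may still differ. Plots used matplotlib 3.10.9 in Python 3.11.15.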

Additional observations from a re-analysis of the deposited data

How the results depend on the processing

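The counts of 5 members higher and 6 lower were unchanged when counts were scaled by total or by DESeq2's size factors, when unique exon reads were used, and with low genes kept or a minimum of 50 reads in 3 libraries. They were 0 and 0 with the nearly identical libraries summed, where all genes called numbered 17 and the other pathway genes 0 higher and 0 lower. With libraries of 1 title stem summed they were 5 and 8, all genes called 3797, and other pathway genes 20 higher and 20 lower. In DESeq2, 25 other pathway genes were higher and 25 lower, against 15 and 17. The last title number (1 or 2) served as a replicate block: it gave 7 members higher and 10 lower and 26 other pathway genes lower. Deviations from the genotype means of a knock-out and a wild-type library that share that number correlated by -0.06 to 0.03, which does not show that the number pairs libraries across genotypes; within each genotype it separates the nearly identical pair (number 2) from the remaining library (number 1). Leaving out single libraries gave 1 to 17 members higher, 1 to 12 lower, 1120 to 8486 genes called in all, 2 to 52 other pathway genes higher and 4 to 53 lower, and 0 to 11 members called on intron reads. The highest of each range came without knock-out library 1. Intron reads scaled by the exon factors gave 7 calls among the members. The share of all genes that passed on intron reads in these alternative settings is not given here, so the counts have no background. Total counts moved the median of all genes by -0.09 (log2), and 40.1% instead of 50.7% of calls were then higher. On the written strand alone, CARE was found in 2 members.

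Signs changed only for members that did not pass (log2 fold changes, where 0.00 is a value rounded to 0): Pycr1 -0.10, Pdia3 -0.09, Creld2 -0.04, Edem1 -0.06, Sel1l -0.04 (total counts), Pycr1 0.00, Pdia3 -0.01 (50 reads in 3 libraries), Pycr1 -0.21, Pdia3 0.00, Edem1 -0.04 (nearly identical libraries summed), Pycr1 -0.07, Pdia6 0.00 (replicate block (last title number)), Pycr1 -0.29, Pdia6 0.02, Edem1 0.00 (number after p as a term), Pdia3 0.00 (DESeq2 size factors), Pdia3 0.00 (DESeq2), Pdia3 -0.02 (title stems summed), Pdia6 0.00 (unique exon reads). With single libraries left out, Cebpg ran from -0.11 to 0.05, Trib3 ran from -0.21 to 0.20, Pycr1 ran from -0.21 to 0.31, Pdia3 ran from -0.02 to 0.04, Pdia6 ran from -0.04 to 0.08, Edem1 ran from -0.01 to 0.13. The cause of these changes was not tested. Whether the nearly identical libraries are separate cultures is not given in the labels used here.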
